A study of Mus musculus with 18 samples.

Results

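Liver glycogen is built and broken down by a small set of enzymes, and 9 of their genes are described here among the 18946 genes of the deposited expression table. They were found by symbol: Ppp1r3g, Ppp1r3b and Ppp1r3c, which encode glycogen-targeting subunits of protein phosphatase 1, the synthesis enzymes Gys2, Gbe1 and Ugp2, the breakdown genes Pygl and Phka2, and the kinase gene Gsk3b. The livers came from C57BL/6J males, an inbred strain in wide laboratory use, of which 10 were Old (19.76 months by label) and 8 Young (6.18 months by label). The design text rounds these ages to 20 and 6 months, and the growth protocol gives 21 months for the Old mice. All mice had fasted overnight and had then received insulin during a hyperinsulinemic-euglycemic clamp, in which infused glucose holds blood glucose level, so no liver without insulin was compared. RNA was extracted with the AllPrep kit in 5 Old and 3 Young mice and with the RNeasy kit in 5 Old and 5 Young mice. The label also gives the liver glycogen of each mouse, in a unit that the labels do not state and that is called label units here.

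Glycogen is a branched store of glucose. Glucose entering the hepatocyte is phosphorylated and carried to UDP-glucose, glycogen synthase adds it to a growing chain, and the branching enzyme makes the branches. Phosphorylase releases it again. Synthase is active without phosphate and phosphorylase with it, so protein phosphatase 1, held on the glycogen particle by its targeting subunits, turns storage on and breakdown off. Kinases such as phosphorylase kinase and glycogen synthase kinase 3 act the other way, and insulin is known to favour the phosphatase.

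The upstream windows of 2 of the targeting subunits are printed first. Ppp1r3g is the member that was called by age. Ppp1r3c is the one with the strongest rank correlation (negative) with liver glycogen in Young mice, before kit means are removed. Both windows hold the 250 bases before the annotated gene start, from RefSeq on GRCm38.p6, written 5′ to 3′ on the gene's own strand. Capitals mark a match to any of 4 motifs named for factors of the hormone response of liver.
Ppp1r3g (chr13:35967656-35967905, plus strand): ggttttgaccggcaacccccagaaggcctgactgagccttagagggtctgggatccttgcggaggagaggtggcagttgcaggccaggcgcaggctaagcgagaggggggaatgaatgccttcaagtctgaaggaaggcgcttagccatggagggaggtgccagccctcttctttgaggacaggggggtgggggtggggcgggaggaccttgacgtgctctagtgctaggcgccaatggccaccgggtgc
Ppp1r3c (chr19:36736605-36736854, minus strand): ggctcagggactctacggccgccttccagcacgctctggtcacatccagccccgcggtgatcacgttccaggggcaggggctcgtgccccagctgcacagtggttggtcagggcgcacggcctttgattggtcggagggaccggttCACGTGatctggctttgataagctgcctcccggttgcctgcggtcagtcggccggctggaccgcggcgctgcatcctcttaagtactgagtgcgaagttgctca

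The motifs searched, on both strands, were the E-box CACGTG, the FOXO motif GTAAACA, the cyclic AMP response element TGACGTCA and the sterol response element TCACNCCAC. An E-box starts 104 bases before the Ppp1r3c gene start, and none of the 4 motifs was found in the Ppp1r3g window. Among 32851 windows of the same length, 6.02% hold the E-box, 3.17% the FOXO motif, 1.55% the cyclic AMP response element and 1.05% the sterol response element. Of the other members, Pygl, Gbe1, Ugp2, Phka2 and Gsk3b have a window in the table and none of these holds a match, while Gys2 and Ppp1r3b have no entry in the table. A match is a string of letters and was not tested as a binding site.

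Values are scaled TPM, that is reads divided by gene length and brought to the same total in each library. The values of each library were then divided by its factor, which sets the trimmed mean of log ratios between libraries to 0. The deposited values could be turned back into whole reads, 85937497 to 127801518 per library over the listed genes. Age was tested with limma on log2(scaled TPM + 0.5), with the kit as a term, across the 13895 genes that reached 0.5 TPM in 8 libraries or more, and a gene is called where its Benjamini-Hochberg adjusted p over all of them is under 0.05. All 9 glycogen genes passed this filter. Age differences were called for 617 genes, 4.44% of those tested, of which 290 were higher in Old livers (2.09%) and 327 lower (2.35%). With no composition factor that split was 341 higher and 188 lower, although each of the 9 glycogen genes kept its direction. The 617 calls became 318 without Young replicate 10, 337 without Young replicate 1, 372 without Young replicate 2 and 403 without Old replicate 9. They became 752 without Old replicate 6, 909 without Old replicate 16 and 932 without Old replicate 14. Among the 9 glycogen genes 1 was called, Ppp1r3g, which was lower, and 1 of 9 is too small a count to be read against the 4.44% of all genes. The median log2 difference of the 9 was 0.17 and 7 of 9 were above 0, beside a median of -0.01 and 47.3% above 0 among all genes tested.

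The levels of the 9 genes spanned a wide range, and per gene length the order was similar in both ages. In Old livers Pygl was highest with a mean of 351.5 scaled TPM, followed by Ugp2 (252.5), Gys2 (125.5), Gbe1 (116.1), Ppp1r3c (102.4), Ppp1r3b (101.8), Gsk3b (24.3), Phka2 (4.99) and Ppp1r3g (2.30). In Young livers the order of means was Pygl (313.7), Ugp2 (197.8), Gys2 (152.5), Ppp1r3c (91.6), Gbe1 (83.2), Ppp1r3b (72.7), Gsk3b (23.9), Ppp1r3g (17.2) and Phka2 (4.22). Neighbours in this order often did not separate: Gys2 exceeded Gbe1 in 5 of 10 Old libraries, and Ppp1r3c exceeded Ppp1r3b in 4 of 10. In Young libraries Ppp1r3c exceeded Gbe1 in 4 of 8. The steps from Ppp1r3b down to Gsk3b had no overlap of ranges in either age. Ppp1r3g stood below Phka2 in 8 of 10 Old livers, and above it in 6 of 8 Young livers.

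**Figure D1:**
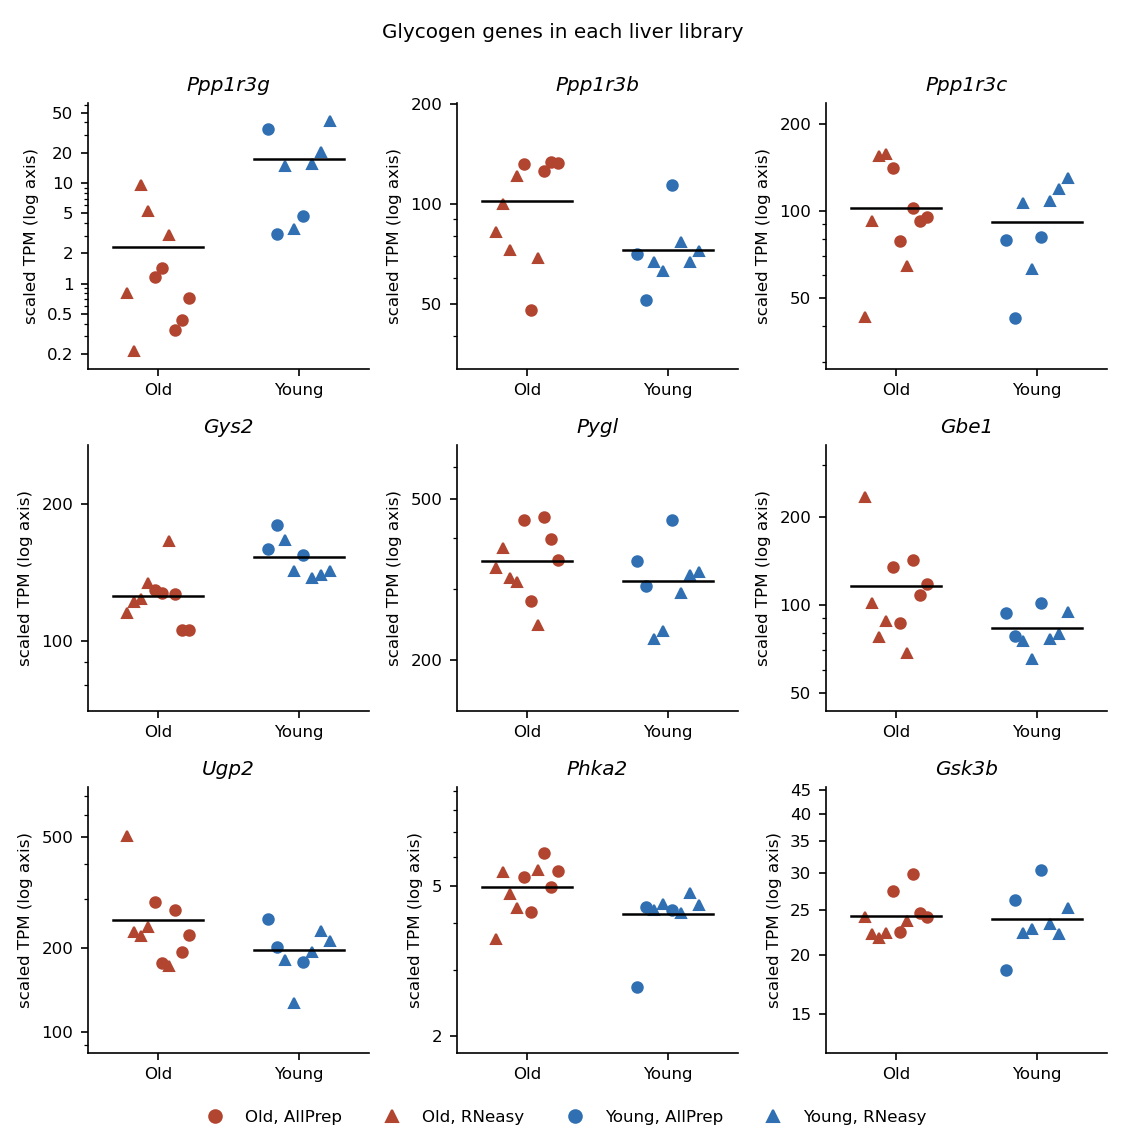
Scaled TPM (log axis, its range set for each gene) of the 9 glycogen genes in each liver library, with Old left and Young right; circles are AllPrep libraries, triangles RNeasy libraries and bars group means. Ppp1r3g shows the largest log2 difference between the ages. For Ppp1r3g 8 of 10 Old libraries lie below all Young libraries, and for Gys2 9 of 10. The ranges of both ages overlap for every one of the 9 genes.

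Ppp1r3g (ENSMUSG00000050423), which encodes a targeting subunit whose mRNA in mouse liver is known to be higher on fasting than after feeding, was lower in Old livers. In the AllPrep libraries it had 0.348, 0.436, 0.729, 1.16 and 1.44 scaled TPM in Old mice, against 3.09, 4.72 and 34.4 scaled TPM in Young mice. These AllPrep values do not overlap. In the RNeasy libraries it had 0.216, 0.817, 3.06, 5.23 and 9.56 scaled TPM in Old mice, against 3.51, 14.7, 15.3, 20.2 and 41.4 scaled TPM in Young mice. Here the ages overlap, because Old replicates 16 and 17 lie above the lowest Young library. Over both kits the mean was 2.30 ± 2.99 scaled TPM in Old and 17.2 ± 14.4 in Young livers (SD, n = 10 and 8), a ratio of means of 0.134. The reads behind these values came to 32 to 1372 per library in Old and 378 to 7810 in Young mice, so every library is above the 3 reads that a count of 0 would allow. On the log2 scale Ppp1r3g fell by 2.58 ± 0.54 (SE, limma adjusted p = 0.0138), with a 95% interval of -3.71 to -1.44. All 10 Old livers lay below the median of the Young livers, and Ppp1r3g was called in each of the 18 fits that left out 1 library, at -2.85 to -2.19. The pseudocount of 0.5 shrinks a difference between levels as low as these, and with 0.1 the log2 difference was -2.99.

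The fall of Ppp1r3g had the same direction in each kit but was called in neither alone, with -2.79 ± 0.64 in AllPrep libraries (SE, limma adjusted p = 0.077, n = 5 and 3) and -2.42 ± 0.77 in RNeasy libraries (SE, limma adjusted p = 0.356, n = 5 each). A test of the difference between the kits gave -0.37 ± 1.12 (SE, limma adjusted p = 0.997), and 1 of 13895 genes (0.0072%) was called in that test, with 599 at an unadjusted p under 0.05. It was Ces4a, named after its value was seen, and 0 of the 9 glycogen genes were called. Body weight at the clamp was 35.1 to 55.0 in Old and 26.6 to 34.8 in Young mice in label units, with no overlap, so age and body weight cannot be told apart. With weight as a further term the log2 difference of Ppp1r3g was -0.88 ± 0.85 (SE, limma adjusted p = 0.665). With liver glycogen as a further term it was -3.30 ± 0.89, and also not called (SE, limma adjusted p = 0.303). Glycogen too differed by age, at 19.2 to 28.4 label units in Old and 23.2 to 50.6 in Young mice. The fit with weight and the fit with glycogen each called 3 of 13895 genes. In bulk liver RNA, fewer cells of a type and less RNA per cell cannot be told apart.

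Ppp1r3b (ENSMUSG00000046794) encodes the main targeting subunit of liver, through which active phosphorylase is known to hold back synthase. It had 48.1 to 133.8 scaled TPM in Old livers with a median of 110.8, against 51.3 to 113.8 scaled TPM in Young livers with a median of 68.7. Of the Old livers, 5 of 10 lay above every Young liver and 9 of 10 above the Young median, while Old replicate 5 was the lowest of all 18. The means were 101.8 ± 31.7 scaled TPM in Old and 72.7 ± 18.3 in Young livers (SD, n = 10 and 8), and the log2 difference of 0.42 ± 0.19 was not called (SE, limma adjusted p = 0.203, 95% interval 0.01 to 0.82). Without Old replicate 5 it was 0.53 and called (limma adjusted p = 0.0445), so that 1 library sets this gene on one or the other side of the threshold.

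Ppp1r3c (ENSMUSG00000067279) encodes the subunit known as protein targeting to glycogen, which also binds synthase and phosphorylase. It had 43.0 to 157.7 scaled TPM in Old livers with a median of 94.0, against 42.9 to 130.5 scaled TPM in Young livers with a median of 94.4. The ages thus shared almost their whole range. The log2 difference was 0.17 ± 0.25 (SE, limma adjusted p = 0.726), with a 95% interval of -0.36 to 0.69. By kit it was 0.61 ± 0.24 in AllPrep libraries (SE, limma adjusted p = 0.216) and -0.17 ± 0.35 in RNeasy libraries (SE, limma adjusted p = 0.898). The difference between the kits, 0.78 ± 0.48, did not pass the threshold (SE, limma adjusted p = 0.995). Old replicate 14, an RNeasy library, held the lowest Old value of 43.0, and without it the log2 difference over both kits was 0.33 (limma adjusted p = 0.341). Without that library the RNeasy difference was 0.099 (limma adjusted p = 0.938), and the difference between the kits 0.51 (limma adjusted p = 0.723).

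The 7 targeting subunit genes listed, Ppp1r3a to Ppp1r3g, summed to 214.9 ± 60.2 scaled TPM in Old livers and 189.1 ± 46.7 scaled TPM in Young livers (SD, n = 10 and 8). Ppp1r3g made up 1.06% of that sum in Old livers (0.108% to 3.88% over libraries) and 8.31% in Young livers (2.24% to 18.0%). The share of Ppp1r3b averaged 47.9% in Old and 39.6% in Young livers, and that of Ppp1r3c 47.1% in Old and 47.7% in Young livers. Ppp1r3e, which encodes a further subunit expressed in liver, averaged 7.91 scaled TPM in Old and 7.39 in Young livers. Ppp1r3a, known from muscle, Ppp1r3d and Ppp1r3f each stayed below 0.31 scaled TPM in all libraries and did not pass the filter. Ppp1r3b exceeded Ppp1r3g by a median of 107.7 times in Old livers (7.61 to 463.7) and 4.77 times in Young livers (1.75 to 24.1), which is a ratio of the 2 genes within each library and does not depend on the scaling between libraries.

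**Figure D2:**
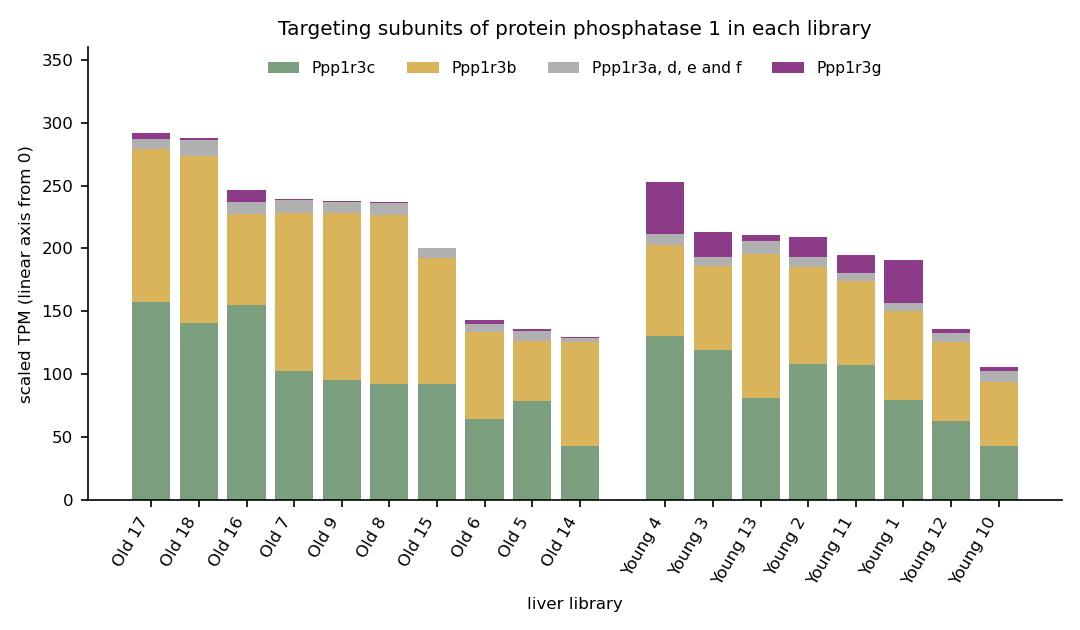
Summed scaled TPM (linear axis from 0) of the phosphatase 1 targeting subunit genes in each liver library, with 10 Old libraries left and 8 Young libraries right, each age sorted by its sum. Ppp1r3b and Ppp1r3c fill most of each bar, and the Ppp1r3g part is 0.108% to 3.88% of the sum in Old libraries and 2.24% to 18.0% in Young libraries.

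On the synthesis side, Gys2 (ENSMUSG00000030244), the liver glycogen synthase, stood lower in most Old livers but was not called. It had 105.6 to 165.6 scaled TPM in Old livers with a median of 125.2, against 137.4 to 179.1 scaled TPM in Young livers with a median of 148.5. All but Old replicate 6, the highest of the Old livers, lay below every Young liver. The means were 125.5 ± 17.0 scaled TPM in Old and 152.5 ± 14.9 in Young livers (SD, n = 10 and 8), and the log2 difference was -0.28 ± 0.08 (SE, limma adjusted p = 0.0576, 95% interval -0.46 to -0.11). Without Old replicate 6 it was -0.34 and called (limma adjusted p = 0.0137). The difference was -0.46 ± 0.11 in AllPrep libraries (SE, limma adjusted p = 0.0897) and -0.15 ± 0.11 in RNeasy libraries (SE, limma adjusted p = 0.718), and the test between the kits gave -0.32 ± 0.15 (SE, limma adjusted p = 0.995). With liver glycogen as a further term the Gys2 difference was -0.07 ± 0.12 (SE, limma adjusted p = 0.935), and with body weight -0.11 ± 0.14 (SE, limma adjusted p = 0.756). Each of these fits called 3 of 13895 genes.

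Gbe1, the branching enzyme, had 68.5 to 234.3 scaled TPM in Old livers with a median of 104.9, against 65.5 to 101.6 scaled TPM in Young livers with a median of 79.2. In 6 of 10 Old livers it lay above every Young liver. Its log2 difference of 0.38 ± 0.18 was not called (SE, limma adjusted p = 0.215, 95% interval -0.0015 to 0.76), and it was 0.21 without Old replicate 14, which held the highest value (limma adjusted p = 0.236). Ugp2, which makes UDP-glucose, was highest in the same library. It ranged from 172.7 to 503.8 scaled TPM in Old livers with a median of 225.5, against 127.0 to 254.4 scaled TPM in Young livers with a median of 198.5. The log2 difference of Ugp2 was 0.31 ± 0.18 (SE, limma adjusted p = 0.313, 95% interval -0.07 to 0.69), and 0.16 without Old replicate 14 (limma adjusted p = 0.461).

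The ranges of the breakdown genes overlapped between the ages, as they did for every gene described here. Pygl, the liver glycogen phosphorylase, had 244.7 to 451.8 scaled TPM in Old livers with a median of 344.7, against 225.6 to 443.3 scaled TPM in Young livers with a median of 315.2. Its log2 difference was 0.13 ± 0.12 (SE, limma adjusted p = 0.529, 95% interval -0.12 to 0.38). Phka2, the regulatory alpha subunit of phosphorylase kinase in liver, had 3.61 to 6.13 scaled TPM in Old livers with a median of 5.13, against 2.70 to 4.81 scaled TPM in Young livers with a median of 4.37. In 6 of 10 Old livers it lay above every Young liver, and Young replicate 1 lay apart below the others. The log2 difference of Phka2 was 0.22 ± 0.10 (SE, limma adjusted p = 0.209, 95% interval 0.0029 to 0.44), or 0.12 without Young replicate 1 (limma adjusted p = 0.408).

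Gsk3b, the kinase that phosphorylates and restrains glycogen synthase, had the smallest age difference of the 9. It had 21.8 to 29.8 scaled TPM in Old livers with a median of 23.9, against 18.6 to 30.4 scaled TPM in Young livers with a median of 23.0. Its log2 difference was 0.01 ± 0.08 (SE, limma adjusted p = 0.947), with a 95% interval of -0.15 to 0.18, and its sign changed with the library left out.

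Ratios within a library put these genes side by side. Pygl exceeded Gys2 by a median of 3.02 times in Old livers (1.48 to 3.75) and 2.17 times in Young livers (1.36 to 2.87). The ratio of Gbe1 to Gys2 had a median of 0.929 in Old livers (0.414 to 2.03) and 0.567 in Young livers (0.438 to 0.663). That of Ugp2 to Gys2 had a median of 1.85 in Old livers (1.04 to 4.37) and 1.29 in Young livers (0.891 to 1.66). These ratios are descriptions, were not tested, and overlap between the ages in each case.

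The 9 genes also differed in how much they varied among mice of the same age and kit. The residual SD of Ppp1r3g was 1.24 on the log2 scale, more than that of 99.7% of the genes tested, whose median was 0.208. For Ppp1r3c it was 0.568, for Ppp1r3b 0.436, for Gbe1 0.406 and for Ugp2 0.403. Pygl at 0.252 and Phka2 at 0.221 stood near the median of all genes, and Gys2 at 0.171 and Gsk3b at 0.162 below it. In level, 6 of the 9 genes stood above 90.9% or more of the genes tested, Gsk3b above 75.0%, Phka2 above 39.7% and Ppp1r3g above 36.3%.

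The other genes of the pathway were taken from 5 lists of 44 genes, of which 41 are in the table and 36 passed the filter. By age 1 of the 36 rose and 2 fell, beside 2.09% higher and 2.35% lower among all genes tested, so that neither these counts nor those of single lists are read as a result about the pathway. Their median log2 difference was -0.01, as it was for all genes tested. Of 7 tested genes of glucose entry and glucose 6-phosphate, 1 rose and 0 fell. Gckr, which encodes a regulatory protein of hepatocyte glucose metabolism, averaged 76.5 ± 14.6 scaled TPM in Old and 64.1 ± 16.1 in Young livers (SD, n = 10 and 8), a log2 difference of 0.34 ± 0.08 (SE, limma adjusted p = 0.0218). It was called neither without Young replicate 1 (limma adjusted p = 0.0503) nor with no kit term (0.305).

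Of 8 other breakdown genes tested, 0 rose and 1 fell. This was Phkg2, the catalytic subunit of phosphorylase kinase in liver, with 2.80 ± 0.37 scaled TPM in Old and 3.50 ± 0.22 in Young livers (SD, n = 10 and 8) and a log2 difference of -0.29 ± 0.07 (SE, limma adjusted p = 0.035). Its call was lost in 10 of the 18 fits without 1 library, at limma adjusted p-values of up to 0.080 (Old replicates 8, 9, 15 and 18 and Young replicates 1, 2, 10, 11, 12 and 13), and with no composition factor (0.0586). Of 9 kinases acting on glycogen synthase, 0 rose and 1 fell: Prkaa2, the alpha 2 catalytic subunit of AMP-activated protein kinase, with 29.4 ± 3.71 scaled TPM in Old and 36.5 ± 3.58 in Young livers (SD, n = 10 and 8) and a log2 difference of -0.33 ± 0.07 (SE, limma adjusted p = 0.0187). In the lists of other synthesis genes (5 tested) and of other phosphatase 1 subunits and partners (7 tested) 0 genes were called. The smallest p in the first belonged to Pgm2l1 (0.12) and Pgm2 (0.17), and in the second to Nhlrc1 (0.31) and Ppp1r2 (-0.18), each given with its log2 difference. Within either kit alone none of the 3 called pathway genes passed the threshold, at limma adjusted p-values of 0.0824 to 0.177 in AllPrep and 0.343 to 0.565 in RNeasy libraries. With glycogen or body weight as a further term none of the 3 passed either, at limma adjusted p-values of 0.597 to 0.863 and 0.185 to 0.593. Among all 13895 genes each of those fits called 3.

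**Figure D3:**
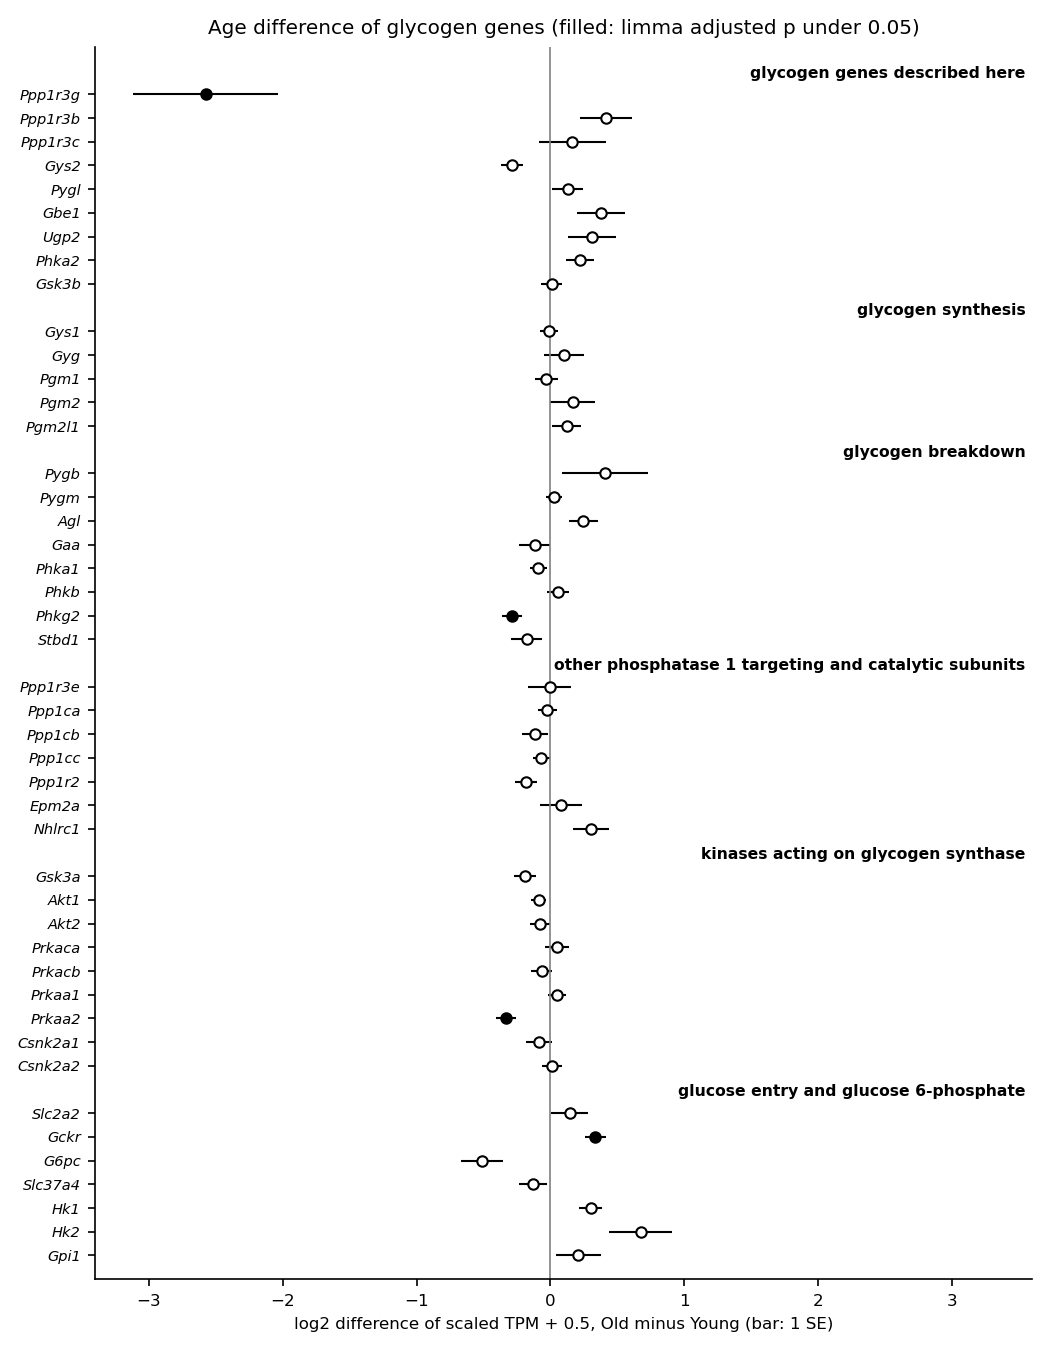
Log2 difference of scaled TPM + 0.5, Old minus Young (x axis; bars are 1 SE), for the 9 glycogen genes at the top and the 36 tested genes of the 5 pathway lists below; filled points have a limma adjusted p under 0.05. Ppp1r3g lies far left at -2.58, and Hk2, not called, lies farthest right at 0.67.

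Markers of liver cell types overlapped between the ages in each list. Summed hepatocyte markers (9 of 10 in the table) came to 101500 to 147600 scaled TPM in Old and 96130 to 146300 in Young livers. Summed markers of Kupffer cells and macrophages (8 of 8) came to 199.6 to 701.1 scaled TPM in Old livers with a median of 430.9, against 212.9 to 520.2 scaled TPM in Young livers with a median of 333.2. Stellate cell markers (6 of 6) had medians of 239.3 in Old and 184.5 in Young livers, and sinusoidal endothelial markers (6 of 6) 125.7 in Old and 131.5 in Young livers. Old replicate 14 had the highest Old sums of endothelial (154.2) and cholangiocyte markers (81.3, Old median 32.0). It was the lowest Old library for the 1 adipocyte marker in the table (0.414, Old median 8.07) and for that of muscle (0.144). Its sums for hepatocytes, macrophages, stellate, T and NK, B cells and neutrophils lay inside the Old range. The part of these differences in the values above was not tested. Of the skeletal muscle markers 1 of 5 is in the table, Mylpf, at 0.144 to 0.433 scaled TPM in Old and 0.155 to 0.482 in Young livers.

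Liver glycogen itself, the product of these enzymes, was lower in Old mice. The label gives 19.2 to 28.4 label units in Old mice with a median of 23.1, against 23.2 to 50.6 label units in Young mice with a median of 40.4. The means were 23.4 ± 3.08 in Old and 39.5 ± 9.62 in Young mice (SD, n = 10 and 8), and the difference of -16.1 had a two-sided exact permutation p of 0.000229. Among AllPrep mice alone the means were 21.7 in Old and 46.9 in Young mice (exact permutation p = 0.0179, the smallest that 56 regroupings allow). Among RNeasy mice alone they were 25.0 in Old and 35.0 in Young mice, and that difference of -9.98 did not pass 0.05 (exact permutation p = 0.0556). Between the kits the means were 21.7 with AllPrep and 25.0 with RNeasy in Old mice (exact permutation p = 0.103), and 46.9 with AllPrep and 35.0 with RNeasy in Young mice (exact permutation p = 0.125).

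The slope of each gene on glycogen within age was fitted in limma together with the age and kit terms, and is given per 10 label units. Of 13895 genes 0 were called (0%), with 384 at an unadjusted p under 0.05, and limma-voom on the recovered reads also called 0, with 391 at an unadjusted p under 0.05. Among the 9 glycogen genes 2 were under that unadjusted limit. The Ppp1r3c slope was -0.44 ± 0.17 and the Gys2 slope 0.13 ± 0.06 (SE, limma adjusted p = 0.999 for both). With library weights 50 of 13895 genes were called, with 2428 at an unadjusted p under 0.05. Ppp1r3c was among those called, at -0.54 (limma adjusted p = 0.0486). The slope of Ppp1r3g was -0.44 ± 0.43 (SE, limma adjusted p = 0.999), with 0.94 in AllPrep libraries alone and -1.29 in RNeasy libraries alone (limma adjusted p = 1.0 for both). A difference between the slopes of Old and Young mice was called for 0 of the 13895 genes (0%), with 167 at an unadjusted p under 0.05 and 0 of the 9 genes among them.

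Correlations with glycogen were computed for each gene within each age, 18 in all. In Young livers Ppp1r3c was lower where glycogen was higher, with Pearson's r = -0.78 (exact permutation p = 0.0234, adjusted over the 18 tests 0.421) and Spearman's rho = -0.93 (exact permutation p = 0.00223, adjusted 0.0402, n = 8). Young replicate 10, with the most glycogen at 50.6 label units, had the least Ppp1r3c at 42.9 scaled TPM, and Young replicate 4, with 28.5 label units, had the most at 130.5. Without Young replicates 3 and 4, the 2 mice farthest from the median glycogen, r was -0.71 and rho -0.89 (exact permutation p = 0.124 and 0.0333, adjusted 0.69 and 0.3, n = 6), so the rank correlation no longer passed. With the mean of each kit removed r was -0.63 and rho -0.81 (permutation p = 0.102 and 0.0218, adjusted 0.505 and 0.131). In that setting Pygl in Young livers had r = -0.88 and rho = -0.83 (permutation p = 0.011 and 0.0154, adjusted 0.199 and 0.131). Gbe1 in Young livers had r = -0.72 and rho = -0.81 (permutation p = 0.053 and 0.0218, adjusted 0.477 and 0.131). With kit means kept, r and rho were -0.12 and -0.14 for Pygl and -0.11 and -0.29 for Gbe1. The permutations with kit means removed moved values across kits, so their p-values are approximate. In Old livers, whose glycogen spans a narrower range, Ppp1r3c had r = -0.32 and rho = -0.25 (permutation p = 0.363 and 0.483, n = 10). Ugp2 in Old livers had r = 0.11 and rho = 0.26. Without the 2 Old mice farthest from the median glycogen these were 0.77 and 0.90 (permutation p = 0.0158 and 0.00456, adjusted 0.285 and 0.0821, n = 8). Gys2 in Young livers had r = 0.69 and rho = 0.81 (exact permutation p = 0.0592 and 0.0218, adjusted 0.533 and 0.196, n = 8). No gene passed with both measures, and no r passed the adjustment.

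**Figure D4:**
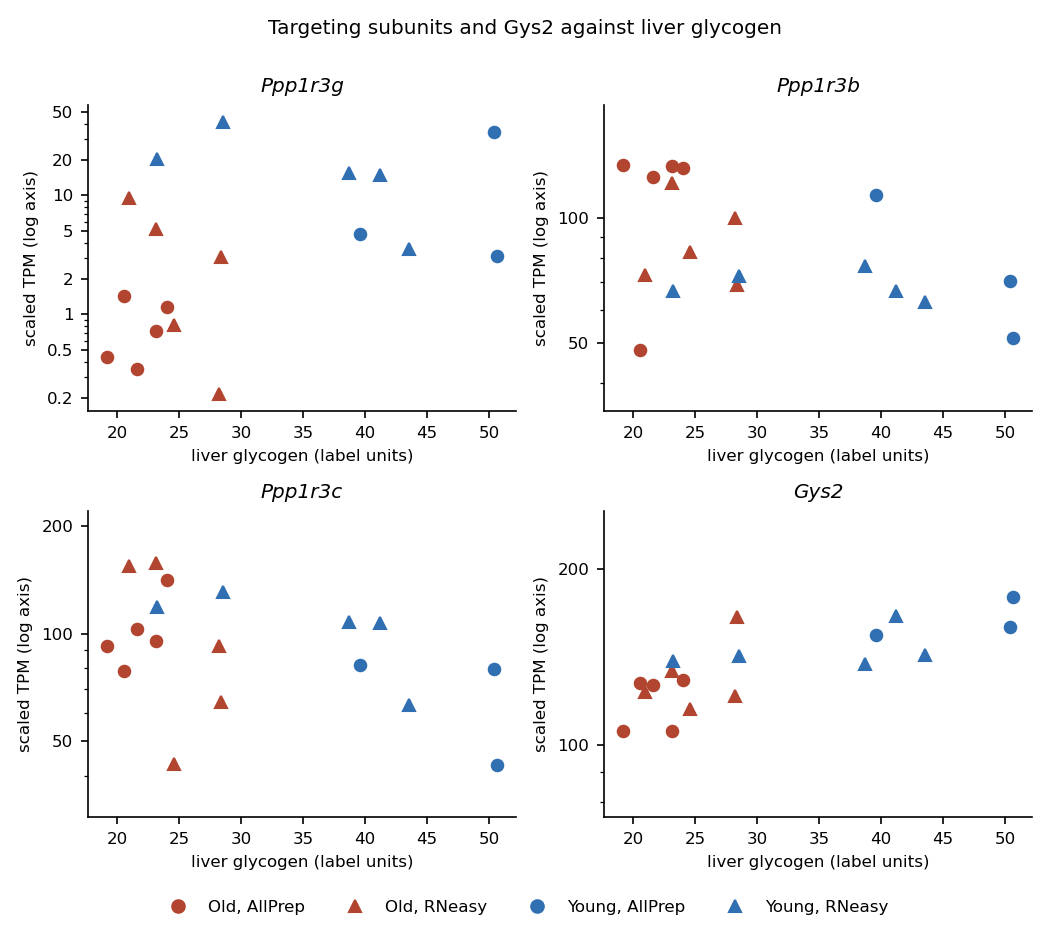
Scaled TPM (log axis) of Ppp1r3g, Ppp1r3b, Ppp1r3c and Gys2 against liver glycogen in label units (x axis) in each mouse, Old in red and Young in blue, with circles for AllPrep and triangles for RNeasy libraries. Old mice lie at 19.2 to 28.4 label units, with Young replicates 3 (23.2) and 4 (28.5) within or beside that range, and the lowest Young value of Ppp1r3c, 42.9, belongs to the mouse with 50.6 label units.

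The members were also compared with one another within each age, in 36 pairs and 72 tests of each measure, and 0 passed the adjustment with either. The highest r was that of Gbe1 with Ugp2 in Old livers, 0.90 (permutation p = 0.00096, adjusted 0.0691, rho = 0.82 with adjusted p = 0.204, n = 10), and it was 0.75 without Old replicate 14 and 0.65 without the 2 libraries farthest from the Gbe1 median. Next came Pygl with Gbe1 in Young livers, with r = 0.88 and rho = 0.95 (exact permutation p = 0.00464 and 0.00114, adjusted 0.167 and 0.0821, n = 8), which kept r = 0.92 without 2 libraries. Ppp1r3g and Ppp1r3c had r = 0.78 in Young livers (exact permutation p = 0.0225, adjusted 0.352), and 0.44 without the 2 farthest libraries. Over all pairs r was positive in 20 of 36 in Old and 22 of 36 in Young livers.

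Among 8764 genes of at least moderate level, those whose residuals after age and kit were most like each member's were named by rank of Pearson's r over the 18 libraries. For Ppp1r3g they were Pxdc1 (0.889), Arl4a (0.881), Gadd45b (0.877) and G6pc (0.857). G6pc, the catalytic subunit of glucose 6-phosphatase, is in the pathway lists and averaged 538.3 ± 111.8 scaled TPM in Old and 787.3 ± 221.2 in Young livers (SD, n = 10 and 8), a log2 difference of -0.51 ± 0.16 that was not called (SE, limma adjusted p = 0.0688). For Ppp1r3b they were Kctd2 (0.815), Zfp143 (0.768), Rfx7 (0.766) and Rock2 (0.762), of which Kctd2 was called higher in Old livers (0.39, limma adjusted p = 0.0158). For Ppp1r3c they were Btbd1 (0.927), Ldah (0.905), Cnnm4 (0.884) and Ces1d (0.884). These correlations describe shared spread over the same libraries.

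For the remaining members 2 genes each were named. Gys2 was most like Osbpl1a (0.849) and Nlrp12 (0.800), and Pygl most like Acp5 (0.843) and Gstt3 (0.836). Gbe1 was most like Enpp2 (0.931) and Itpripl2 (0.919), and Ugp2 most like Tvp23b (0.917) and Cldn1 (0.869). Without Old replicate 14 these last 4 values were 0.835, 0.783, 0.835 and 0.725. Phka2 was most like Dennd1a (0.957) and Adcy9 (0.955), and Gsk3b most like Clasp1 (0.927) and Aak1 (0.921). Between the 9 members themselves the highest residual r was 0.866, for Gbe1 with Ugp2, and that of Ppp1r3g with Ppp1r3c was 0.56.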

How the data were processed

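Ribosome-depleted total RNA of 18 mouse livers was sequenced on an Illumina NovaSeq per the labels' protocols. The authors deposited TPM for 18946 genes, and each column sums to 1000000. STAR 2.7.9a, Subread, featureCounts and the builds GRCm39 and mm10 are named per the submitters' processing notes, without a role for each. The sources used here state no gene lengths, annotation or strand setting, so genes that overlap or have near-identical copies are uncertain. Whole reads were found for all 18946 genes (largest distance from a whole number 1.7e-08).

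Scaling trimmed 30% of log ratios and 5% of mean levels at each end, with factors of 0.839 to 1.17. Fits used limma 3.58.1 in R 4.3.3 with a variance trend, and were tested on simulated data. Differences are on the log2(scaled TPM + 0.5) scale, which understates those of low genes. Permutation tests were exact for 8 mice or 2 groups and used 100000 permutations for correlations over 10 mice. Those with kit means removed moved values across kits and are approximate. No pair of the 73 pairs of libraries of 1 age agreed within sampling noise (lowest chi-square per degree of freedom 38.2). No replicate number occurs in both ages, so no pairing was possible. Each library is 1 mouse per the labels. Python 3.11.15, numpy 2.4.6, pandas 2.3.3, scipy 1.17.1 and matplotlib 3.10.9 did the rest.

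Members, lists and tests were chosen with earlier results of these data known. Named genes are the 9 members, the called genes of each list or else its 2 smallest p, and the most alike genes (4 for each targeting subunit, 2 for the others). A gene of the lists that meets this rule is not reported here and is left out of their counts. Alternatives were the kit term, each kit, scaling, pseudocount, filter, library weights, limma-voom, a further term for glycogen or body weight, and leaving out 1 library at a time.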

Additional observations from a re-analysis of the deposited data

Results flagged for a closer look

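In 20 groups of values (each of the 9 genes and liver glycogen in each age) 5 values stood farther from the rest of their group than Dixon's 95% limit. Chance flags about 1 in 20 groups where values are normally distributed and groups independent, which was not tested here. Gene values were taken as scaled TPM, not on the log2 scale of the fits, and the flags of Gbe1 and Ugp2 fall on the same library. Old replicate 14 had 234.3 scaled TPM of Gbe1, with the next Old library at 142.2, and 503.8 scaled TPM of Ugp2, with the next at 292.7. Old replicate 6 had 165.6 scaled TPM of Gys2, with the next Old library at 133.7. Young replicate 13 had 113.8 scaled TPM of Ppp1r3b, with the next Young library at 76.8. Young replicate 1 had 2.70 scaled TPM of Phka2, with the next lowest Young library at 4.25.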

How the results depend on the processing

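Ppp1r3g, the 1 member called by age, was also called under every other scaling, pseudocount and filter tried, with no kit term, in limma-voom and in all 18 fits without 1 library. The count of members called was 2 with library weights (Ppp1r3g and Phka2, 0.23, limma adjusted p = 0.0444), beside 1390 of 13895 genes. It was 1 to 2 without 1 library, beside 318 to 932 genes. In AllPrep libraries alone it was 0, beside 156 genes. In RNeasy libraries alone it was 0, beside 15 genes, or 60 without Old replicate 14 (-2.14 for Ppp1r3g without it). With glycogen (-3.30) or body weight (-0.875) as a further term it was 0, beside 3 genes each. Members called by glycogen slope numbered 1 with library weights (Ppp1r3c, -0.54, limma adjusted p = 0.0486), beside 50 of 13895 genes. With no age term 1 was called (Gys2, 0.16, limma adjusted p = 0.05 when rounded), beside 84 of 13895 genes. That Gys2 slope is not within age, and takes in the difference between the ages. The RNeasy mice alone gave a glycogen difference of -9.98, and fits without 1 mouse -18.4 to -14.5.

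Age differences that changed sign, none of them called: with body weight as a term, Ppp1r3b -0.152, Ppp1r3c -0.156, Pygl -0.223, Phka2 -0.193 and Gsk3b -0.25; with glycogen as a term, Ppp1r3c -0.56, Pygl -0.083 and Gsk3b -0.0906; in RNeasy libraries alone, Ppp1r3c -0.17 and Gsk3b -0.0205 (-0.0397 without Old replicate 14); with library weights, Gsk3b -0.0294; and without 1 library, Gsk3b -0.0642 to 0.0616. Slopes that changed sign were, in AllPrep libraries alone, Ppp1r3g 0.945 and Ugp2 0.452; with no age term, Ppp1r3g 0.828; in RNeasy libraries alone, Phka2 0.000739; in Old livers alone, Ppp1r3b 0.238, Pygl 0.0359, Gbe1 0.137, Phka2 0.381 and Gsk3b 0.137; and without 1 library, Ugp2 -0.107 to 0.0623 and Gsk3b -0.119 to 0.00826. The cause was not tested.

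Over all genes 617 age calls became 1390 with library weights, 156 in AllPrep and 15 in RNeasy libraries alone (60 without Old replicate 14). They became 3 each with glycogen or body weight as a term, and 337, 372 and 318 without Young replicates 1, 2 and 10. Without Old replicates 6, 9, 14 and 16 they became 752, 403, 932 and 909. Slope calls numbered 50 with library weights and 84 with no age term. No paired analysis was possible because the ages share no replicate number. With 10 and 8 mice the 95% intervals of the uncalled members differ in width, with -0.15 to 0.18 on the log2 scale for Gsk3b and 0.01 to 0.82 for Ppp1r3b.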
